A study of Mus musculus with 6 samples.

Results

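The genes described here are 42 homeobox genes that pattern the jaw and the tooth, listed by name, together with every gene of the Hox clusters. Of the 42 listed genes, 41 were found in the table of 19270 genes, and 4 Hox genes were found beside them, so that 45 genes are described in all. *Meis2* was not analysed here, and neither were the other genes among the 39 annotated Hox names. The rule uses gene names only and no measured value, but the members were chosen with earlier results of these data known.

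RNA was sequenced from the proximal end of the mouse incisor, dissected as mesenchymal tissue, in 3 control and 3 mutant mice of 1 month of age, 4 days after tamoxifen. The mutants were *Gli1-CreER;Arid1b fl/fl*, so that tamoxifen removed the floxed *Arid1b*, a subunit of the BAF chromatin remodelling complex, from GLI1+ cells and their descendants. The Cre is driven by *Gli1*, which is active in some epithelial cells of the incisor as well as in its mesenchymal stem cells, and cells that never expressed *Gli1* kept their alleles. According to the methods, controls carried *Arid1b fl/fl* and also received tamoxifen, but their labels read wild type. Only the authors' mean of each group was analysed per gene, with no value per mouse, so the values below carry no SD, no test across mice could be run, and differences are described without a p-value.

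Homeobox genes encode transcription factors that bind DNA through the homeodomain, a helical fold encoded by a conserved stretch named the homeobox. In the embryonic jaw, signals from the oral epithelium switch on different homeobox genes at different positions of the neural crest mesenchyme, and the combination present in a region is known to bear on whether incisors or molars form there. The jaw mesenchyme arises from crest cells that do not express Hox genes. In the adult mouse incisor, which grows throughout life, many of these factors remain expressed in the dental mesenchyme and in the enamel-forming epithelium.

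The homeoboxes of *Dlx1* and *Dlx2* are printed first, because these neighbouring genes are described side by side below and a reader can see how alike the stretches are that encode their DNA-binding domains. They were read from the mm10 genome on the coding strand, 5′ to 3′, and capitals mark the bases that differ from the partner. The *Dlx1* homeobox is split over exons 2 and 3 within chr2:71531025-71532311 (plus strand), and that of *Dlx2* over exons 2 and 3 within chr2:71544877-71545515 (minus strand), with the intron left out of both sequences. They are identical at 133 of 180 bases (73.9%).
Dlx1: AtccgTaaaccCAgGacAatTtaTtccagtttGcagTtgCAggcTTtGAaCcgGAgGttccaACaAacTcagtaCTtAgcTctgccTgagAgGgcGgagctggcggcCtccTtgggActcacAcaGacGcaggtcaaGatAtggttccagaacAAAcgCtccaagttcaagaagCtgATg
Dlx2: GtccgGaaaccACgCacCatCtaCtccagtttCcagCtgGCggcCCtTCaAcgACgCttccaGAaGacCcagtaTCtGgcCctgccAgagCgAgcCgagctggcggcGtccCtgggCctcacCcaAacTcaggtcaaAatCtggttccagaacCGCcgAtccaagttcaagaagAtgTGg

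The deposited group means are a normalized signal, in which the upper quartile of every library was set to between 44.57 and 44.58. From the summary of each library, each value was read as a factor of its library times the read number increased by 1, and the libraries were estimated to hold 37123643 to 49594469 reads on these genes. The mean that 3 reads in every library would give, 0.103 for controls and 0.0923 for mutants, was used as a floor. Intervals given below are 95% exact binomial intervals of the ratio of the estimated reads of both groups. They are inferred from the means, they cover counting error only, and the spread between mice is not in them. *Arid1b* itself had a control mean of 97.6 and a mutant mean of 38.0, a log2 ratio of -1.36, in the direction given by the labels. The groups also differed in sex-linked transcripts. *Xist*, which is transcribed from the inactive X chromosome of females, had a control mean of 3368 and a mutant mean of 814, and the 4 Y-linked genes examined had control means of 0.0259 to 0.0434 and mutant means of 25.3 to 65.3. Sex and genotype therefore cannot be told apart in any value below.

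Most of the homeobox patterning genes differed by less than 1.5 times between the groups. Of the 41 listed genes, 32 lay within 1.5 times of the control mean, the fold used in the study's methods, 8 were higher in the mutants by more than this and 1 was lower. Over all 19270 genes, 7.37% were higher and 5.80% were lower by more than 1.5 times. The count depended on the level of the genes. Among the 32 listed genes with a mean over both groups of at least 10, 2 were higher (*Isl1* and *Pitx1*) and 0 were lower, beside 2.15% higher and 0.912% lower among all 10311 genes at that level. *Pitx1*, with a control mean of 8.09 and a mutant mean of 12.3, passed that level only through its mutant mean. Its place in this count therefore rests on its own difference. Among the 9 listed genes with a mean under 10, 6 were higher (*Barx2*, *Irx1*, *Irx2*, *Meis1*, *Pax3* and *Six2*) and 1 was lower (*Barx1*), beside 13.4% higher and 11.4% lower among all 8959 genes at that level. In bulk tissue, fewer cells of a type and less RNA per cell cannot be told apart, and this holds for every difference described.

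The median log2 ratio of mutant over control was -0.05 over the 41 listed genes and 0.00 over all genes. Counting any difference, 18 of the 41 were higher in the mutants and 23 were lower, beside 9731 higher and 9539 lower of all 19270 genes. The sign of this median rests on the scaling of the libraries, because with equal totals over all genes instead of equal upper quartiles it was 0.01 and 19 genes were lower. The summed signal of the 41 genes was 3159 for controls and 2899.7 for mutants. At 100 and over, a level reached by 10 of the listed genes, 0 passed 1.5 times in either direction and their median was -0.15, beside 1.46% higher and 0.486% lower among all genes at that level. The 5 genes between 1 and 10 held 4 higher genes and 0 lower and had a median of 1.17, beside 8.75% higher and 4.24% lower among all genes there.

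**Figure D1:**
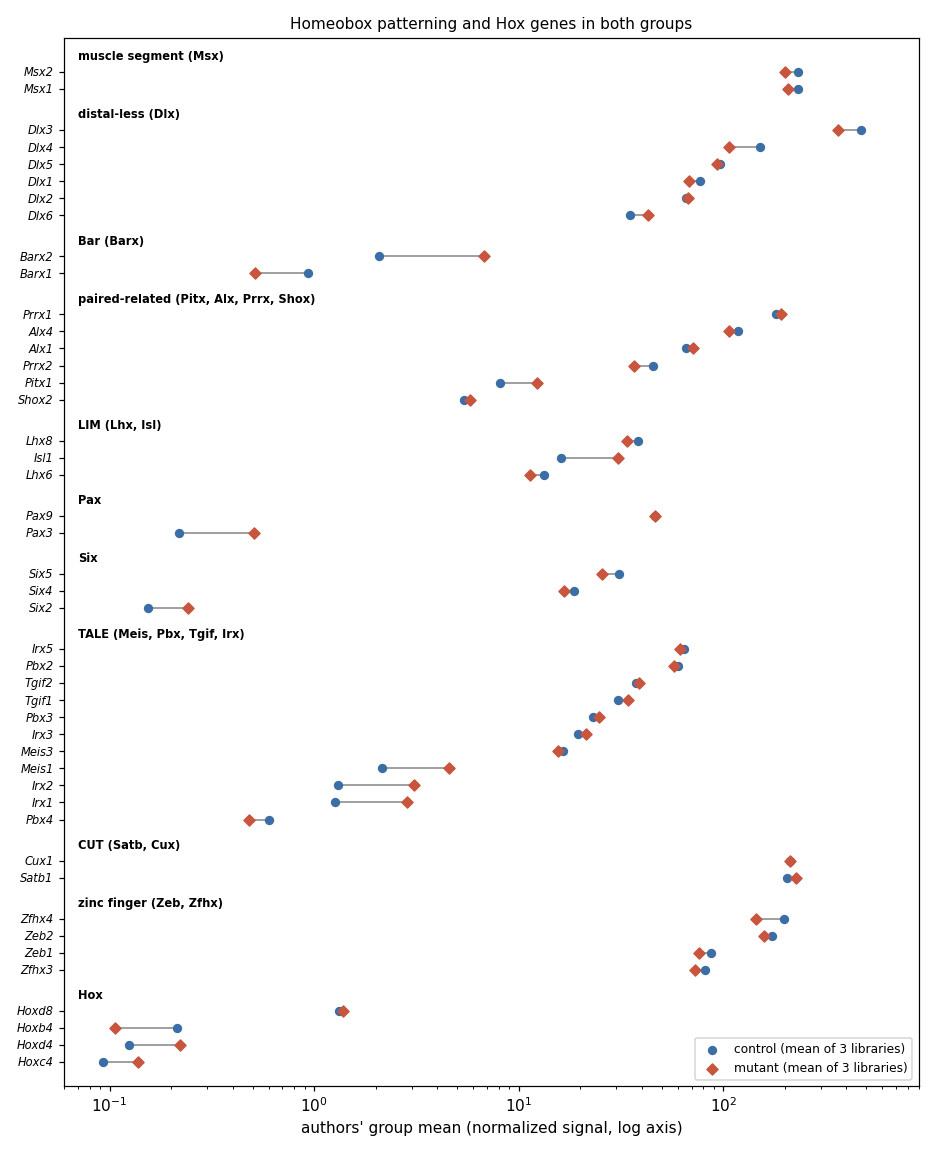
Authors' mean signal of each of the 41 homeobox patterning genes and 4 Hox genes in the table, grouped by homeobox class, on a log axis (blue circles, mean of 3 control libraries; red diamonds, mean of 3 mutant libraries; no error bars, since only group means were analysed). The pairs of points lie close together for the abundant *Msx*, *Dlx*, *Prrx*, CUT and zinc finger genes and apart for the weakly expressed *Barx1*, *Barx2*, *Irx1*, *Irx2*, *Meis1* and *Pax3*.

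Msx1 and Msx2 are repressors of the muscle segment class that act downstream of BMP signals in dental mesenchyme, and loss of Msx1 stops tooth development at the bud stage. *Msx1* had a control mean of 231 and a mutant mean of 208, a log2 ratio of -0.15 (counting interval -0.18 to -0.13). *Msx2* had means of 233 and 201, a log2 ratio of -0.21 (-0.24 to -0.19). Here and below, a pair of means gives the control first and the mutant second. Both genes were slightly lower in the mutants, their log2 ratios differed by only 0.06 from each other, and neither approached 1.5 times.

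The 6 distal-less genes, which form a nested code along the upper and lower jaw, ranged from a log2 ratio of -0.49 to 0.30, with a median of -0.11, and 4 of the 6 were lower in the mutants (3 with libraries scaled to equal totals, where *Dlx5* was at 0.01). *Dlx3*, which is mutated in tricho-dento-osseous syndrome, had a control mean of 469.9 and a mutant mean of 362, a log2 ratio of -0.38 (-0.40 to -0.36). Its neighbour *Dlx4*, 15.2 kb away on chromosome 11, had means of 151 and 107, a log2 ratio of -0.49 (-0.52 to -0.46). These were the lowest ratios of the class, and of all genes with a mean of 100 and over, 3.50% lay as low as *Dlx3* and 1.22% as low as *Dlx4*.

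*Dlx1* and *Dlx2*, 9.4 kb apart on chromosome 2 and required together for upper molars, had log2 ratios of -0.17 (-0.22 to -0.13; means 76.9 and 68.1) and 0.04 (0.00 to 0.09; means 65.6 and 67.6). *Dlx5* and *Dlx6*, 9.2 kb apart on chromosome 6 and known for specifying the lower jaw, had log2 ratios of -0.05 (-0.09 to -0.01; means 95.9 and 92.7) and 0.30 (0.24 to 0.35; means 34.9 and 42.9). Within each of these neighbouring pairs the first gene thus had the lower ratio, by differences of -0.22 and -0.34 on the log2 scale. Exons of *Dlx1*, *Dlx4* and *Dlx6* overlap antisense transcripts by 335, 79 and 104 bases, and because the strand used in counting is not given in the sources used here, reads from there could have been counted for either gene. The antisense transcripts had means of 10.8 and 11.0 for *Dlx1as*, 67.8 and 69.2 for *Dlx4os*, and 1.98 and 0.843 for *Dlx6os2*. The levels of all 3 antisense transcripts were above the floor, so each of these ratios is uncertain to that extent.

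Of the pairs of related genes compared, the Barx genes differed most. *Barx1*, known for the molar-forming mesenchyme of the jaw, lies at chr13:48662998-48666507 (plus strand) and had a control mean of 0.932 and a mutant mean of 0.516. Its log2 ratio was -0.85 (-1.35 to -0.42) from about 105 and 65 reads, and 10.6% of all genes with a mean under 1 had a ratio as low. *Barx2*, a related factor studied in epithelia and in muscle, lies at chr9:31846044-31913462 (minus strand) and had a control mean of 2.07 and a mutant mean of 6.74.

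The ratio of *Barx2*, 3.25 times, was the highest of the listed genes, and its log2 ratio was 1.70 (1.5 to 1.93) from about 238 and 889 reads. Only 0.812% of all genes with a mean between 1 and 10 had a ratio as high. The log2 ratios of *Barx1* and *Barx2* differed by -2.55, where the other 11 pairs of related genes compared differed by between -0.34 and 0.37. Levels were unlike, since of those other pairs only *Irx1* and *Irx2* had means under 10, as the Barx genes did. The pairs were a chosen list, and some related genes left out of it also lay apart. *Pax3* and *Pax9* had log2 ratios of 1.22 and -0.0037, and *Meis1* and *Meis3* of 1.10 and -0.07. *Tgif1* and *Tgif2*, also left out, lay close at 0.16 and 0.05. The middle 90% of log2 ratios lay between -1.17 and 1.29 for all genes under 1. It lay between -0.545 and 0.82 at 1 to 10, and between -0.29 and 0.36 at 10 to 100.

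**Figure D2:**
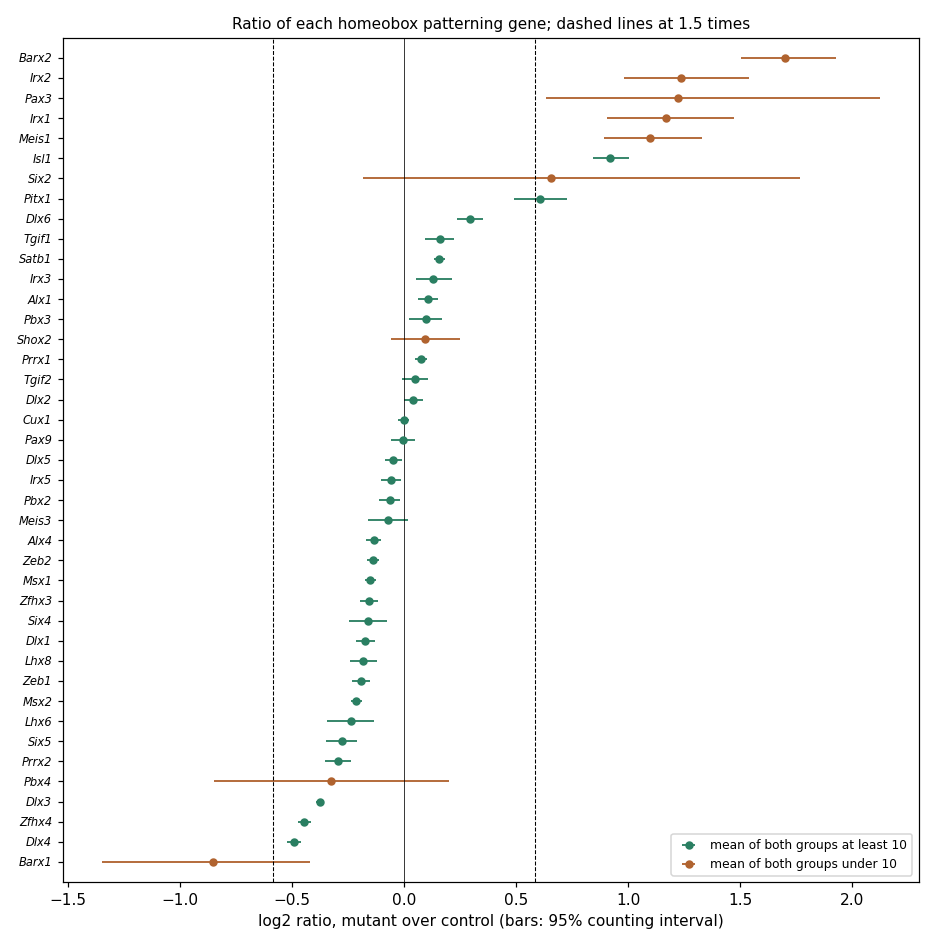
Log2 ratio of mutant over control mean for each of the 41 homeobox patterning genes in order of ratio, with 95% counting intervals from estimated reads as bars and dashed lines at 1.5 times in either direction (green, mean over both groups of at least 10; orange, under 10). The 6 genes above *Six2* (*Barx2*, *Irx2*, *Pax3*, *Irx1*, *Meis1* and *Isl1*) have counting intervals that lie wholly above 1.5 times, the interval of *Six2* spans 0, and *Barx1* is the only gene left of the lower line.

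Among the 6 paired-related genes the median log2 ratio was 0.09. *Pitx1*, a factor of the lower jaw and the hindlimb, had a control mean of 8.09 and a mutant mean of 12.3. Its log2 ratio of 0.61 (0.49 to 0.73) put it just above 1.5 times. Of the listed genes within that fold in either direction, *Dlx4*, which was lower in the mutants, lay closest to it. *Alx1* and *Alx4*, which shape the frontonasal skeleton, had log2 ratios of 0.11 (means 66.0 and 71.0) and -0.14 (means 118 and 107).

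*Prrx1* and *Prrx2*, which act together in the skeletal mesenchyme of limb and lower jaw, differed by 0.37 in log2 ratio. *Prrx1* had means of 182 and 191, a log2 ratio of 0.07 (0.05 to 0.10), and *Prrx2* had means of 45.1 and 36.8, a log2 ratio of -0.29 (-0.35 to -0.24). *Shox2*, a factor of palate and limb, had means of 5.39 and 5.76 and a counting interval that spans equality, -0.06 to 0.25. Its exons overlap *Rsrc1* on the opposite strand by 153 bases. *Rsrc1* had far higher means of 50.6 and 48.4, and reads there could have been counted for either gene.

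Of the LIM homeobox genes, *Isl1* stood apart from *Lhx6* and *Lhx8*. *Isl1*, which marks the oral epithelium where incisors form in the early jaw, lies at chr13:116298281-116309689 (minus strand) and had a control mean of 16.1 and a mutant mean of 30.5. Its ratio was 1.89 times and its log2 ratio 0.92 (0.84 to 1.00), and 0.909% of all genes with a mean between 10 and 100 had a ratio as high. *Lhx6* and *Lhx8*, which mark the oral side of the first arch mesenchyme, were lower in the mutants, with log2 ratios of -0.24 (means 13.3 and 11.3) and -0.18 (means 38.5 and 34).

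*Pax9*, which dental mesenchyme needs to pass the bud stage, was nearly equal in both groups, with means of 46.5 and 46.4 and a counting interval of -0.06 to 0.05. *Pax3*, a gene of neural crest and muscle precursors, had means of only 0.217 and 0.508, a log2 ratio of 1.22 (0.63 to 2.12) from about 22 and 64 reads over 3 libraries. *Six4* and *Six5*, of the sine oculis class, were slightly lower, with log2 ratios of -0.16 (means 18.7 and 16.7) and -0.28 (means 30.9 and 25.5). *Six2*, best known from kidney progenitors, was near the floor at 0.154 and 0.243, and its ratio, though above 1.5 times, has a counting interval of -0.18 to 1.77 that includes equality.

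The TALE genes, named for a loop of extra residues in the homeodomain, encode the Meis and Pbx cofactors of other homeodomain proteins, the Tgif repressors and the Iroquois factors. Their median log2 ratio was 0.10, and 3 of the 11 found were higher by over 1.5 times, beside 7.37% of all genes. These 3 were among the 4 TALE genes with a mean under 10, a level at which 13.4% of all genes were higher. *Meis1* had a control mean of 2.14 and a mutant mean of 4.57, a log2 ratio of 1.10 (0.89 to 1.33), while *Meis3* had means of 16.4 and 15.6. Exons of *Meis1* overlap *Gm37818* on the same strand by 1029 bases and *Gm16140* on the other strand by 896, and those of *Pitx1* overlap *Gm28760* and *Gm47071* by 108 and 165, so that reads there could belong to either gene. Of these partners, *Gm37818* had means of 0.108 and 0.225, *Gm28760* of 0.0679 and 0.179, and *Gm47071* of 0.343 and 0.36. These lay below the means of *Meis1* and *Pitx1*, and *Gm16140* was not analysed here. The Pbx genes lay closer to equality, at 59.8 and 57.2 for *Pbx2*, 23.1 and 24.7 for *Pbx3*, and 0.602 and 0.481 for *Pbx4*, whose counting interval was -0.85 to 0.20. *Tgif1* and *Tgif2*, which dampen TGF-β responses, had log2 ratios of 0.16 (means 30.5 and 34) and 0.05 (means 37.4 and 38.7), and 56.7% of the exon bases of *Tgif2* overlap another gene on the opposite strand.

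The Iroquois genes are described by genomic cluster. *Irx1* and *Irx2*, 665.1 kb apart on chromosome 13, were both more than 2 times higher in the mutants. *Irx1* had means of 1.26 and 2.84, a log2 ratio of 1.17 (0.90 to 1.47), and *Irx2* had means of 1.31 and 3.09, a log2 ratio of 1.23 (0.98 to 1.54). *Irx3* and *Irx5*, 555.6 kb apart on chromosome 8, stayed within 1.5 times, with log2 ratios of 0.13 (means 19.6 and 21.4) and -0.06 (means 64.2 and 61.7). For each gene, the transcript with the longest coding sequence was compared with those of the other genes. The longest stretch shared exactly was 65 bases, between *Irx2* and *Irx5*. Other transcripts were not compared, and the read length is not given in the sources used here.

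All 6 genes of the CUT and zinc finger classes stayed within 1.5 times. So did most genes at their level, since only 2.15% of all genes with a mean of at least 10 were higher and 0.912% lower. *Satb1*, a chromatin organizer, had means of 204 and 228, a log2 ratio of 0.16, and *Cux1*, a repressor of the CUT class, had means of 212 and 212. All 4 zinc finger homeobox genes were lower in the mutants, with a median log2 ratio of -0.17. *Zfhx4*, a large factor needed for palate closure, had the lowest of these ratios, with means of 197 and 145 and a log2 ratio of -0.45 (-0.47 to -0.42), and 1.94% of all genes with a mean of 100 and over had a ratio as low. *Zeb1* and *Zeb2*, repressors of E-cadherin, had log2 ratios of -0.19 (means 86.6 and 75.9) and -0.14 (means 173 and 157), and *Zfhx3* had means of 81.0 and 72.7.

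Hox genes were weakly expressed in both groups. *Hoxd8* had the highest control level of the 4, at 0.482 per kb of exon, with a control mean of 1.32 and a mutant mean of 1.38, and its log2 ratio of 0.06 has a counting interval of -0.26 to 0.39. *Hoxb4* had means of 0.213 and 0.106 from about 22 and 11 reads, a log2 ratio of -1.01 (-2.38 to -0.08), and *Hoxd4* had means of 0.124 and 0.22 from about 11 and 26 reads, a log2 ratio of 0.82 (-0.01 to 2.22). *Hoxc4* had a control mean of 0.0924, below the value of 3 reads per library, and a mutant mean of 0.138, from about 8 and 15 reads, a log2 ratio of 0.58 (-0.61 to 2.16). By means alone 1 of the 4 was higher and 1 was lower by over 1.5 times, beside 17.9% higher and 18.4% lower among all genes with a mean under 1, where 3 of the 4 lie. The interval of *Hoxb4* ends just below 0, and 7.18% of all genes with a mean under 1 had a ratio as low. Since these intervals leave out the spread between mice, no difference in Hox genes was resolved. The exons of *Hoxd4* overlap those of *Hoxd3* on the same strand, so reads there could belong to either gene.

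Levels were compared between genes per kilobase of merged exon. *Dlx3* had the highest control level of the 45 genes, at 180.3 per kb, followed by *Msx1* at 74.5, *Msx2* at 70.9, *Dlx4* at 46.1 and *Dlx5* at 42.4. *Prrx2*, *Dlx2* and *Irx5* followed at 23.0, 23.0 and 20.5 per kb. The jaw and tooth mesenchyme markers *Msx1*, *Dlx2* and *Pax9* (at 9.19 per kb) were thus well expressed, whereas *Barx1* reached only 0.666 per kb and *Barx2* 1.05. Without values per mouse, it cannot be said which neighbours in this order differ beyond their spread.

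**Figure D3:**
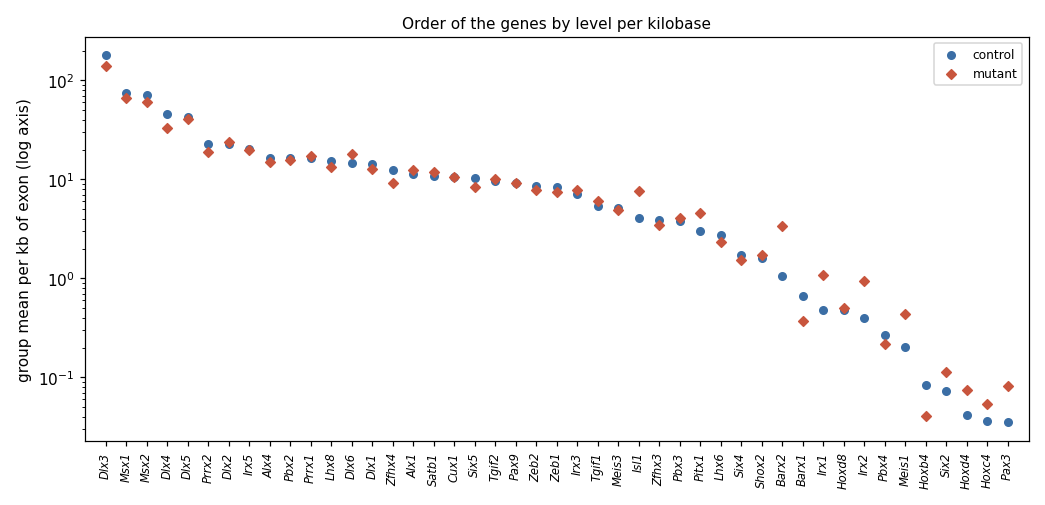
Authors' group mean divided by kilobases of merged exon for the 45 genes, ordered by control level, on a log axis (blue circles, control; red diamonds, mutant; 1 mean of 3 libraries each, no error bars). *Dlx3* leads in both groups at 180.3 and 139 per kb, and *Pax3* has the lowest control level at 0.0351.

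Only 31 of the 45 genes had a promoter entry, under 80% of them, so no promoter property was compared over the set. The 250 bases before the start of *Isl1* and *Irx2* are shown from RefSeq (GRCm38.p6), 5′ to 3′ on the gene's strand, as examples of higher genes with an entry, and capitals mark matches on either strand to the homeodomain core TAATTA, the bicoid-type core TAATCC, the TATA box sequence TATAAA or the GC box sequence GGGCGG. The *Isl1* sequence, at chr13:116309689-116309938 (minus strand), holds 33 CpG and 1 match, to TAATCC. The *Irx2* sequence, at chr13:72628570-72628819 (plus strand), holds 19 CpG and 2 matches, both to GGGCGG.
Isl1: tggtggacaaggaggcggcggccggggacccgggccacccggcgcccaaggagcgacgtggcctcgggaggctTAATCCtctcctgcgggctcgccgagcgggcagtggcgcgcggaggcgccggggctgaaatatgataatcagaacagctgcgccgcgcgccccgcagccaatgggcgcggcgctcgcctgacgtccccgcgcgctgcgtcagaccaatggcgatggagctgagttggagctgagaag
Irx2: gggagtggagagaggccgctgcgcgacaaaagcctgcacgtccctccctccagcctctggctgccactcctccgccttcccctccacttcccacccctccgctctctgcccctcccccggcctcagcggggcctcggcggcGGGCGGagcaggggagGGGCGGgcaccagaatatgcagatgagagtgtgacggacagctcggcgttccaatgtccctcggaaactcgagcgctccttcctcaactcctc
Of 32851 promoter entries of 300 bases, TAATCC was found in 7.06% and GGGCGG in 35.7%. These matches describe the letters only.

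Signals and partners of the homeobox genes were examined as lists, whose counts are to be read beside the 7.37% of all genes that were higher and the 5.80% that were lower. Of 12 ligands that pattern jaw and tooth, 2 were higher by over 1.5 times and 0 lower, with a median log2 ratio of -0.05. *Shh*, the hedgehog ligand of dental epithelium, had means of 103 and 174, a log2 ratio of 0.75, and is also among the epithelial markers below. Of 8 receptors, 0 passed 1.5 times in either direction and the median was 0.02, with *Fgfr1* at 983 and 947 and the hedgehog receptor *Ptch1* at 726 and 732. Of 14 partner transcription factors found among 16 listed, 2 were higher and 3 were lower, with a median of -0.11. *Gli1*, the hedgehog target that drives the Cre and whose locus carries it in the mutants, had means of 106 and 46.1, a log2 ratio of -1.21, and *Tbx1*, a factor of dental epithelium, had means of 12.5 and 19.5, a log2 ratio of 0.64.

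Of 31 other homeobox genes found among 45 listed, 5 were higher and 1 was lower, beside 7.37% higher and 5.80% lower among all genes. Their median was 0.00. Of the 20 with a mean of at least 10, 2 were higher and 0 lower, beside 2.15% and 0.912% of all genes at that level. *Hopx*, which encodes a homeodomain protein that does not bind DNA, had means of 9.98 and 16.4, a log2 ratio of 0.71. It passed the level of 10 only through its mutant mean. The lower gene was *Cux2* (means 5.78 and 3.61), named after its values were seen.

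**Figure D4:**
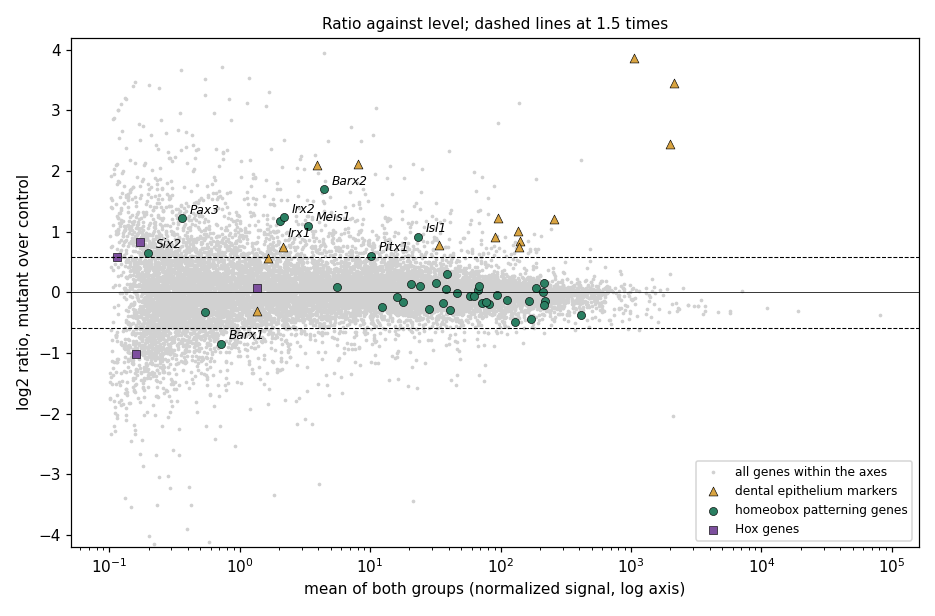
Log2 ratio of mutant over control mean against the mean of both groups on a log axis, for 19214 genes (grey; 56 genes lie outside the axes), with the 41 homeobox patterning genes (green circles), the 4 Hox genes (purple squares) and 15 dental epithelium markers (orange triangles), and dashed lines at 1.5 times. The spread of all genes narrows with level, *Barx2* and *Isl1* lie near its upper edge at their levels, and 13 of the 15 epithelial markers lie above the upper line.

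Markers of some other cells differed between the groups, and those of dental epithelium are given first. Of 15 markers of dental epithelium, 13 were higher by over 1.5 times and 0 lower, with a median log2 ratio of 1.01. Their summed signal was 1716 for controls and 10505 for mutants. Counts of this and the marker lists below are to be read beside 7.37% higher and 5.80% lower of all genes. These lists were chosen with earlier results of these data known. *Odam* (means 1.33 and 1.97) was higher by less than 1.5 times and *Klk4* (1.49 and 1.21) was lower, named after their values were seen. None of the 15 lay at the floor in either group. The enamel matrix genes *Enam* (means 136 and 1983), *Amelx* (362 and 3946) and *Ambn* (617 and 3360.4) had log2 ratios of 3.87, 3.45 and 2.44, and the keratin gene *Krt17* (56.7 and 133) had one of 1.23. Tissue labelled as mesenchymal thus held transcripts of enamel epithelium in both groups, and more in the mutants. The part of these cells in the higher means of *Barx2*, *Isl1*, *Pitx1*, *Meis1*, *Irx1*, *Irx2*, *Pax3* and *Six2* was not tested.

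Among mesenchymal lists, the 7 odontoblast markers had a median log2 ratio of -0.31, with 0 higher and 1 lower, the matrix gene *Dmp1* (means 68.1 and 23.7, log2 ratio -1.52). The 10 incisor mesenchyme markers had a median of -0.29, with 1 higher and 1 lower, *Gli1*, which is also among the partner factors. Among the homeobox classes with the highest summed signal, the medians were -0.18 for *Msx*, -0.17 for the zinc finger and -0.11 for the distal-less genes. They were 0.08 for the CUT and 0.09 for the paired-related genes, and the *Msx* and CUT classes hold only 2 genes each. Whether these medians move with the share of mesenchyme was not tested.

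Endothelial, macrophage and perivascular markers, 6 in each list, had medians of 0.03, 0.21 and -0.10, with 0 genes past 1.5 times. Their most abundant members were *Cdh5* and *Kdr* (means 95.2 and 94.4, 77.9 and 69.6), *Lyz2* and *Csf1r* (126 and 132, 84.8 and 97.3), and *Rgs5* and *Acta2* (411 and 340.1, 63.4 and 88.9). The 6 glial markers had a median of 0.08 with 1 higher, led by *Ngfr* (31.6 and 37.7) and *Mbp* (11.3 and 15.2). The 6 skeletal muscle markers, read here because *Pax3* and *Barx2* are also genes of muscle, had a median of -0.56 with 1 higher and 3 lower, at summed signals of 6.47 and 5.74, led by *Acta1* (2.5 and 1.12) and *Myh4* (0.552 and 2.06). All 5 erythroid markers were lower, with a median of -1.53, among them the globin genes *Hbb-bs* (29.0 and 9.97) and *Hba-a2* (20.4 and 7.49).

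**Figure D5:**
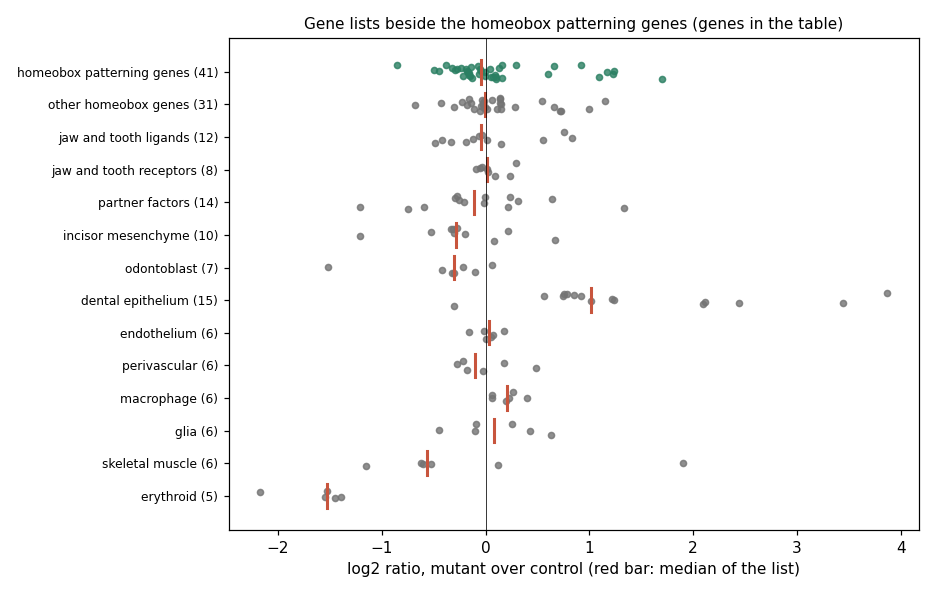
Log2 ratio of mutant over control mean for each gene (points, spread vertically for legibility only) of the homeobox patterning genes, of 4 lists of related genes and of 9 marker lists, with the number of genes in the table in brackets and the median of each list as a red bar. The homeobox patterning genes centre at -0.05 with a tail to the right, the dental epithelium markers centre at 1.01 and the erythroid markers at -1.53.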

How the data were processed

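RNA-seq libraries of 3 control and 3 mutant mice were compared. Trimming, alignment to mm10 and the comparison of groups were done by the authors with Partek Flow, and the submitters' processing notes name TopHat2 2.0.8. The counting of reads, its strand, the annotation and any filter on low values are not given in the sources used here. The deposited gene table holds a normalized signal as the authors' mean of each group, and p-values, an adjusted p-value, a ratio and a fold change of the authors' own comparison, which were not used. A deposited summary gives the mean, quartiles and minimum of each library, and 4 other columns of it were not used.

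The reading of this signal as reads plus 1 times a factor was inferred. The first quartile was a whole multiple of the minimum in 6 of 6 libraries (tolerance 0.02), the lowest group means equal the mean of the library minima, and the mean of all genes (53.05 in controls, 50.9 in mutants) equals the mean of the library means. Of the means up to 3 reads above the lowest value, however, only 31 of 42 in controls and 11 of 26 in mutants matched whole reads, so estimated reads are approximate.

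The planned test (limma on values per library) was not run because such values were not analysed here. Log2 ratios of the group means were computed instead, with no pseudocount, and a ratio over 1.5 in either direction was counted, beside its share of all genes. Members and lists were chosen with earlier results of these data known. Named genes were all members, *Arid1b*, and of each list the members past 1.5 times with a mean of at least 10 (at most 4) or otherwise its 2 most abundant, and a result that this rule covers is not reported here. Coordinates and exon lengths are from GENCODE vM21 (GRCm38). Other thresholds, level filters, pseudocounts and scalings were tried. The software was Python 3.11.15 with scipy 1.17.1, pandas 2.3.3, numpy 2.4.6 and, for plots, matplotlib 3.10.9. Single-cell and chromatin data were not analysed here.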

Additional observations from a re-analysis of the deposited data

How the results depend on the processing

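No paired analysis was possible because only group means were analysed, and for the same reason no replicate was left out, no library was dropped and the planned limma test was not run. The count of 8 higher genes was 5 with log2(mean + 1), 2 at a mean of at least 10 and 5 at a ratio over 2. Of the 2 at a mean of at least 10, *Pitx1* passed that level only through its mutant mean. The count of 1 lower gene was 0 with log2(mean + 1), at a mean of at least 1, at a mean of at least 10 and at a ratio over 2, and 5 at the threshold set below 1.5. The Barx median of 0.42 was 1.70 at a mean of at least 1, where *Barx2* alone was left, and neither Barx gene was left at a mean of at least 10. The Pax median of 0.61 was 0.67 with the lowest mean subtracted and 0.15 with log2(mean + 1), and it reversed to -0.0037 at a mean of at least 1 or of at least 10, where *Pax9* alone was left. The list medians that moved were those of the partner factors (-0.0778 with log2(mean + 1) and -0.0106 at a mean of at least 10), dental epithelium (1.11), incisor mesenchyme (-0.30) and glia (0.34), each at a mean of at least 10, with glia at 0.25 at a mean of at least 1 and the perivascular markers at -0.17 at both levels. No skeletal muscle marker was left at a mean of at least 10. Of the 4 Hox genes, 1 exceeded a group mean of 1. Without a length correction, 5 of the 10 genes with the highest control level remained among the first 10. Scaling to equal totals over all genes, an alternative chosen after seeing the data, added 0.06 to every log2 ratio, moved the median of the 41 genes from -0.05 to 0.0121 and turned the sign of 4 of the 45 genes, *Dlx5*, *Pax9*, *Irx5* and *Cux1*. No gene turned sign with the lowest mean subtracted, with log2(mean + 1) or with centred ratios. Read numbers limit *Pax3*, *Six2*, *Barx1*, *Pbx4* and the Hox genes most, and the missing values per mouse limit every gene.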
